A study of Homo sapiens with 4 samples.

Results

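Levels of 5 mRNAs that respond to MAPK signaling were followed in 2 human gastric cancer (GC) cell lines with and without isorhamnetin (ISO), a methylated flavonol of plants. The genes were EPHA2, DUSP6, CCND1, EGR1 and FOSB. They were picked by symbol, with earlier results of these data known, and the gene lists used below were chosen in the same way. All 5 were found among the 2897 genes of the deposited table. All 5 also passed the filter of a mean of at least 1 FPKM over the libraries, which left 2883 genes. Measured here means held by that table, and genes outside it have no value. The median level of its genes was between 25.6 and 33.5 FPKM in each library. Shares and ranks over all genes thus refer to a mostly well expressed set. FPKM are fragments scaled to gene length and to the size of the library, so levels of different genes can be compared on this scale.

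The 4 groups held 1 RNA-seq library each, from AGS-1 and HGC-27 cells left untreated (control) or given 50 μM ISO for 24 h. The paper's text names a lower dose for this experiment than the sample labels do. Both lines carry the genotype label WT and were grown in the same medium with fetal bovine serum, controls included. The sample labels name no vehicle for these controls. With 1 library per condition, no spread between cultures could be measured within a line, and errors given for single libraries cover counting only. The paper's text speaks of duplicates, and whether a deposited column is a single library or a merge of replicates is not given in the sources used here.

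In the textbook order of this pathway, growth factors activate receptor tyrosine kinases, which act through RAS, RAF and MEK on the kinase ERK. ERK activity induces immediate early genes such as EGR1 and FOSB within minutes, with no need for new protein, and delayed genes later. The delayed products include DUSP6, a phosphatase that switches ERK off again, and CCND1, cyclin D1, which drives cells into the cycle. EPHA2, a receptor for ephrin-A ligands, is itself a target of RAS-ERK signaling and is often abundant in carcinomas.

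The libraries held between 15235005 and 20199425 fragments, recovered from the FPKM values and the gene lengths. Genes of the table took up 78.5% of the AGS-1 library without ISO and 64.4% with it, against 61.0% and 60.0% in HGC-27, and the 13 mitochondrial mRNAs went from 6.93% to 11.7% of the AGS-1 library and from 7.14% to 9.55% of the HGC-27 library. The median log2 ratio of the 2883 genes, ISO over control, was −0.29 for AGS-1 and −0.11 for HGC-27, so each gene is also given relative to that median. In AGS-1 genes with a high control level had lower ratios (Spearman's rho −0.49 across 2883 genes, and −0.23 in HGC-27), a relation in which the control value enters both sides. The part of these shifts in the results on the 5 genes was not tested. Intervals on fragments cover counting error only, and PCR copies are not independent molecules. In such bulk RNA, fewer cells of a type and less RNA per cell cannot be told apart. Of 8 epithelial markers 6 were measured, and their summed level was 2134 FPKM in AGS-1 without ISO and 1361 FPKM with it, against 5.68 and 4.38 FPKM in HGC-27. In HGC-27 without ISO, KRT8 had 2.19 FPKM, KRT7 1.26, CLDN4 0.927 and KRT18 0.919 FPKM, and KRT19 was at 0, so the epithelial markers of a gastric carcinoma label were low there. The mesenchymal markers VIM, TWIST1 and SPARC summed to 0.712 and 0.860 FPKM in AGS-1 and to 734 and 483 FPKM in HGC-27. The fibroblast markers COL1A1 and COL3A1 summed to 9.75 and 6.83 FPKM and to 776 and 602 FPKM. Of 4 immune markers LYZ was measured, with 594 and 314 FPKM in AGS-1 and 0 in both HGC-27 libraries. Of 9 gastric markers 0 were matched, and they were not analysed here.

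Upstream sequence is shown for EGR1, FOSB and EPHA2, the members whose 250 bases before the RefSeq start (GRCh38.p14) held a searched motif. Capitals mark the matches. Motifs were searched on both strands: the CArG box of serum response factor, the cAMP response core TGACGT, the ETS core CCGGAA and the AP-1 site TGANTCA. Of 35116 promoters of the same length, 1.16% held a CArG box, 7.10% TGACGT, 14.5% CCGGAA and 6.57% TGANTCA. The windows lie at chr5:138465229-138465478 (plus strand), chr19:45467746-45467995 (plus strand) and chr1:16156070-16156319 (minus strand).
EGR1: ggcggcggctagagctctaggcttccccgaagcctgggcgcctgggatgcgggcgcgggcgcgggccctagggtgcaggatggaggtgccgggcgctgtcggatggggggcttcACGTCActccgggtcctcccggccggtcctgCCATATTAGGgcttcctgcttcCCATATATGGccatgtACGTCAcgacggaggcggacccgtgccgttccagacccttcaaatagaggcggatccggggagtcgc
FOSB: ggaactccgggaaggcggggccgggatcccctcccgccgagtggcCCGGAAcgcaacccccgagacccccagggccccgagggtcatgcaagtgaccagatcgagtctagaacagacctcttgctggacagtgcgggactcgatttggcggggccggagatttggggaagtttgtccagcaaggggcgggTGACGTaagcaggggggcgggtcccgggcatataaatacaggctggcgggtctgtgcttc
EPHA2: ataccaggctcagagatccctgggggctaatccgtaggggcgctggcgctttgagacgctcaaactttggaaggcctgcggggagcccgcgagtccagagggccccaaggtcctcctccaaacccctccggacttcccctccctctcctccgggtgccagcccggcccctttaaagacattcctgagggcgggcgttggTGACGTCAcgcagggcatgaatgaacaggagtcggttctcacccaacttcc

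EGR1 held 2 CArG boxes, with first bases at −105 and −83 from the start, and 2 copies of the cAMP core, at −136 and −67. FOSB held 1 cAMP core at −60 and 1 ETS core at −205, and EPHA2 the cAMP core on both strands as 1 overlapping palindrome at −51. DUSP6 had no match to any of the 4 motifs in its window, and TGANTCA was found in none of the 4 windows searched. The sequence of CCND1 was not used here. These matches describe the windows only.

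EPHA2 (ENSG00000142627, GRCh38, chromosome 1, 16124337 to 16156069, minus strand) was the only one of the 5 genes that was at least 2-fold lower in both cell lines. It had 532 FPKM in AGS-1 without ISO and 212 FPKM with it, and 21.7 FPKM in HGC-27 without ISO and 10.0 FPKM with it. Both ISO libraries lay below the control of their own line, and both AGS-1 libraries lay above both HGC-27 libraries. EPHA2 was the 51st most abundant gene of the table in the AGS-1 control and the 102nd with ISO. The fold was 2.51 in AGS-1 (95% counting interval 2.46 to 2.56, from 33532 and 13999 fragments) and 2.16 in HGC-27 (1.98 to 2.36, from 1813 and 710 fragments). On the scale of log2(FPKM + 1), which understates changes of low genes, the ratios were −1.32 and −1.04, or −1.03 and −0.93 relative to the median of all genes. Of all 2883 genes, 6.66% were at least 2-fold lower in AGS-1, 0.937% in HGC-27 and 0.312% (9 genes) in both.

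The change shared by the lines was tested with limma on log2(FPKM + 1), in a model of treatment plus cell line, and the 2 lines as the only replication (1 residual degree of freedom). EPHA2 fell by 1.18 on the log2 scale (standard error 0.221, adjusted p = 0.0325 by limma with Benjamini-Hochberg adjustment) and was lower in 2 of 2 lines. It ranked 14th by p among 2883 genes, of which 0.832% were called lower and 0.104% higher. The call depended on the settings. The adjusted p was 0.0670 with median-of-ratios scaling and 0.133 with upper-quartile scaling, where the changes were −1.01 and −0.90.

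The other genes of the ephrin system in the table were EFNA1, an ephrin-A ligand, and EPHB4, a receptor for ephrin-B2. EFNA1 had 36.2 FPKM in AGS-1 without ISO and 29.1 FPKM with it, and 10.9 and 5.71 FPKM in HGC-27. Its log2 ratio of −0.83 in HGC-27 was larger in size than that of −0.30 in AGS-1, which became 0.11 with upper-quartile scaling. EPHB4 had log2 ratios of −0.52 and −0.07, the latter turning to 0.07 under that scaling. Of the 3 genes, EPHA2 alone passed the limma test.

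**Figure D1:**
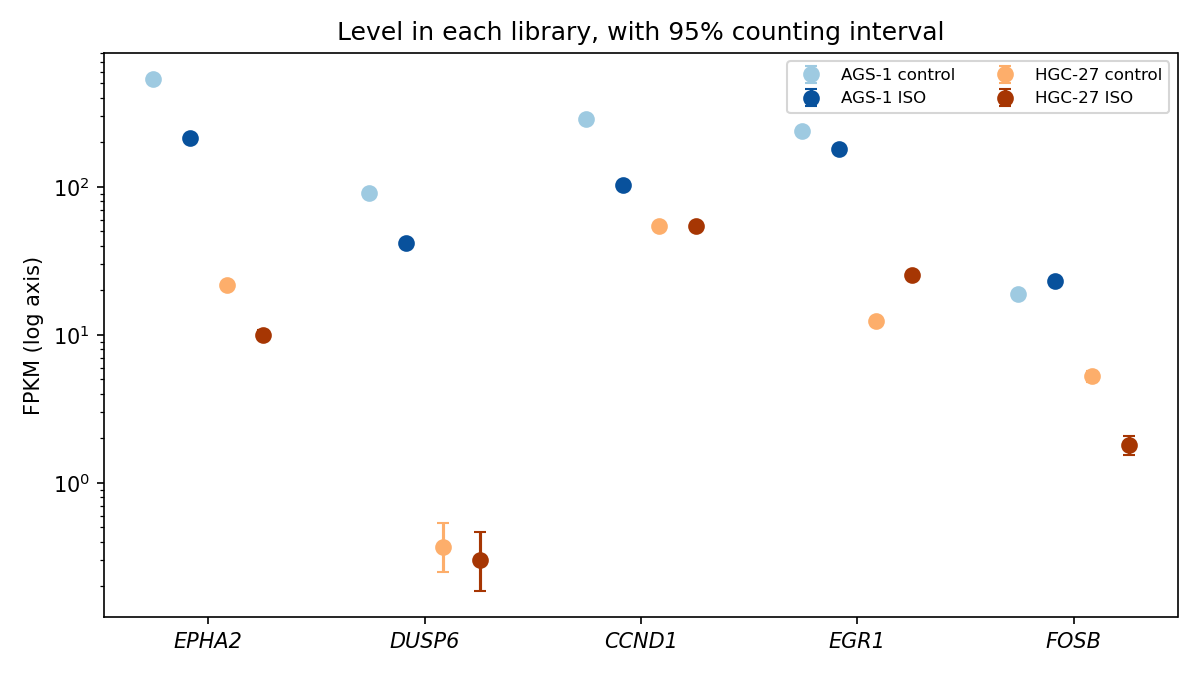
FPKM (log axis) of the 5 genes in each of the 4 libraries, with 95% counting intervals that are mostly smaller than the points. EPHA2 is lower with ISO in both lines, DUSP6 and CCND1 in AGS-1 with overlapping intervals in HGC-27, and EGR1 and FOSB are on opposite sides of their controls in the 2 lines.

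DUSP6 (ENSG00000139318, chromosome 12, 89347235 to 89352501, minus strand), the ERK phosphatase, was a gene of AGS-1 almost alone. It had 91.1 FPKM in AGS-1 without ISO and 41.8 FPKM with it, but 0.372 FPKM (29 fragments) in the HGC-27 control and 0.304 FPKM (20 fragments) with ISO. In AGS-1 it was 2.18-fold lower with ISO (95% counting interval 2.08 to 2.28), a log2 ratio of −1.10, or −0.82 relative to all genes. In HGC-27 the counting interval of the fold, from 0.670 to 2.29, held 1, so that a change was not detectable at this depth. The level in the controls differed 245-fold between the lines, the widest gap of the 5 genes. In the limma test the shared change was −0.59 (standard error 0.299, adjusted p = 0.285 by limma). With upper-quartile scaling the ratio in AGS-1 was −0.69.

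DUSP4, another ERK phosphatase that is mostly nuclear, had 103 FPKM in AGS-1 without ISO and 98.5 FPKM with it, and under 1 FPKM in HGC-27. DUSP1, an immediate early phosphatase, had 70.8 and 55.4 FPKM in AGS-1 and a log2 ratio of −0.20 in HGC-27. DUSP2, also in the lists, had 23.8 and 28.7 FPKM in AGS-1 and 0.847 and 1.31 FPKM in HGC-27. DUSP1, DUSP2 and DUSP4 were picked with their values in view. Among these and DUSP6, DUSP6 alone was at least 2-fold lower in AGS-1 as deposited. Phosphatases outside the lists were not looked at. ERRFI1, an inhibitor of the EGF receptor and the most abundant gene of the delayed list, had 687 and 379 FPKM in AGS-1 and 8.80 and 7.34 FPKM in HGC-27.

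CCND1 (ENSG00000110092, chromosome 11, 69641156 to 69654474, plus strand), the regulatory partner of CDK4 and CDK6, had the lowest ratio of the 5 genes in AGS-1 and did not move in the HGC-27 libraries beyond counting error. It had 289 FPKM in AGS-1 without ISO and 102 FPKM with it, and 54.4 FPKM in HGC-27 without ISO and 54.1 FPKM with it. The AGS-1 ISO library still lay above both HGC-27 libraries. The fold in AGS-1 was 2.83 (95% counting interval 2.75 to 2.90), a log2 ratio of −1.49, which placed CCND1 38th from the lowest of 2883 genes. In HGC-27 the fold was close to 1, with a counting interval from 0.966 to 1.05. Of the 5 genes, CCND1 alone was at least 2-fold lower in AGS-1 under each of the 3 scalings tried, with −1.21 by median-of-ratios and −1.07 by upper quartile. The shared change was −0.75 (standard error 0.310, adjusted p = 0.217 by limma), lower in 2 of 2 lines as deposited, while median-of-ratios scaling turned the HGC-27 ratio to 0.06.

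In the list of cyclin D, its kinases, their inhibitors and RB-E2F genes, 14 of 24 genes were measured. Of these, 2 were at least 2-fold lower in AGS-1 and none higher, and 0 passed in either direction in HGC-27. Over all genes 6.66% were lower and 0.832% higher in AGS-1, and 0.937% and 0.555% in HGC-27. With upper-quartile scaling CCND3 was at −0.66 in AGS-1 and CDKN2C, a CDK inhibitor picked with its value in view, at 1.04, which left 1 gene lower and 1 higher. As deposited, the other gene lower in AGS-1 was CCND3, cyclin D3, with 22.5 and 10.3 FPKM in AGS-1 and 12.0 and 7.69 FPKM in HGC-27. CCND1 made up 92.8% of the CCND1 and CCND3 level in untreated AGS-1 cells and 90.8% with ISO. CDKN1A, the inhibitor p21, had 196 and 179 FPKM in AGS-1, and PCNA, the sliding clamp of replication, 180 and 150 FPKM. TFDP1, the dimer partner of E2F, had 40.5 and 34.1 FPKM there, a ratio that also turned under upper-quartile scaling. The median log2 ratio of the list was −0.25 in each line, against −0.29 and −0.11 over all genes. By limma 0 of the 14 genes were called, with 5 at an unadjusted p under 0.05, against 578 of all 2883 genes.

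EGR1 (ENSG00000120738, chromosome 5, 138465479 to 138469303, plus strand), a zinc finger factor of the immediate early class, was abundant in AGS-1 and lower in HGC-27, and its ratio differed in sign between the lines as deposited. It had 236 FPKM in AGS-1 without ISO and 179 FPKM with it, and 12.4 FPKM in HGC-27 without ISO and 25.5 FPKM with it. In HGC-27 the ISO library was 2.06-fold above the control (95% counting interval 1.89 to 2.25, from 783 and 1365 fragments). The log2 ratio there was 0.99, just under the 2-fold threshold on this scale, and placed EGR1 18th from the highest of 2883 genes, of which 0.555% reached 2-fold higher. In AGS-1 the log2 ratio was −0.40, close to the median of all genes, with −0.11 relative to it, and upper-quartile scaling turned it to 0.02. In the limma test the shared change of EGR1 was 0.29 (standard error 0.289, adjusted p = 0.559 by limma).

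FOSB (ENSG00000125740, chromosome 19, 45467995 to 45475179, plus strand), a subunit of the AP-1 factor, was the least abundant of the 5 genes in AGS-1 and, as deposited, showed the reverse signs of EGR1. It had 18.8 FPKM in AGS-1 without ISO and 23.0 FPKM with it, and 5.24 FPKM in HGC-27 without ISO and 1.79 FPKM with it. The HGC-27 ISO library was 2.92-fold lower (95% counting interval 2.46 to 3.49, from 588 and 170 fragments), the 14th lowest log2 ratio (−1.16) of 2883 genes. In AGS-1 the ISO library was 1.22-fold higher (1.15 to 1.31), a log2 ratio of 0.28, or 0.57 relative to all genes. The sign of both FOSB ratios was the same under each scaling tried, while that of EGR1 in AGS-1 was not. GENCODE 29 places ERCC1 across the whole of FOSB on the other strand. Whether fragments were counted by strand is not given, so reads of both genes cannot be told apart, and ERCC1 was not analysed here. The same holds for LTO1 at CCND1 and for an antisense RNA each at EPHA2 and DUSP6. The shared change was −0.44 (standard error 0.326, adjusted p = 0.440 by limma).

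The level of each of the 5 genes was higher in AGS-1 than in HGC-27, both in the controls and with ISO. In the controls the gap was 245-fold for DUSP6, 24.5-fold for EPHA2, 19.1-fold for EGR1, 5.30-fold for CCND1 and 3.58-fold for FOSB. In the limma fit all 5 were called for the cell line (adjusted p by limma from 2.29e-09 for EPHA2 to 0.000598 for CCND1), where 32.2% of all genes were called higher in AGS-1. Within a gene, the 95% counting intervals of the 4 libraries overlapped only between the HGC-27 control and ISO libraries of DUSP6 and CCND1. At this depth a shift of 1.22-fold (FOSB in AGS-1) was enough to set intervals apart. The share of such overlaps over all genes was not counted, so the count says little about these genes.

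As deposited, 3 of the 5 genes (EPHA2, DUSP6 and CCND1) were at least 2-fold lower in AGS-1 and none higher, against 6.66% lower and 0.832% higher over all genes. The 5 genes were chosen with earlier results of these data known, so setting their counts beside shares of all genes is no test. In HGC-27, EPHA2 and FOSB were at least 2-fold lower and none higher on the log2(FPKM + 1) scale, against 0.937% and 0.555%. EGR1 was just short of 2-fold higher there on that scale (0.99), and 2.06-fold higher without the pseudocount. The difference between the lines in log2 ratio, AGS-1 minus HGC-27, was −0.29 for EPHA2, −1.03 for DUSP6, −1.48 for CCND1, −1.39 for EGR1 and 1.44 for FOSB. These differences compare single libraries and were not tested. For DUSP6 the HGC-27 ratio rests on 29 and 20 fragments and was −0.29 without the pseudocount. Its counting interval of the fold, control over ISO, was 0.670 to 2.29, which held the 2.18 of AGS-1.

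**Figure D2:**
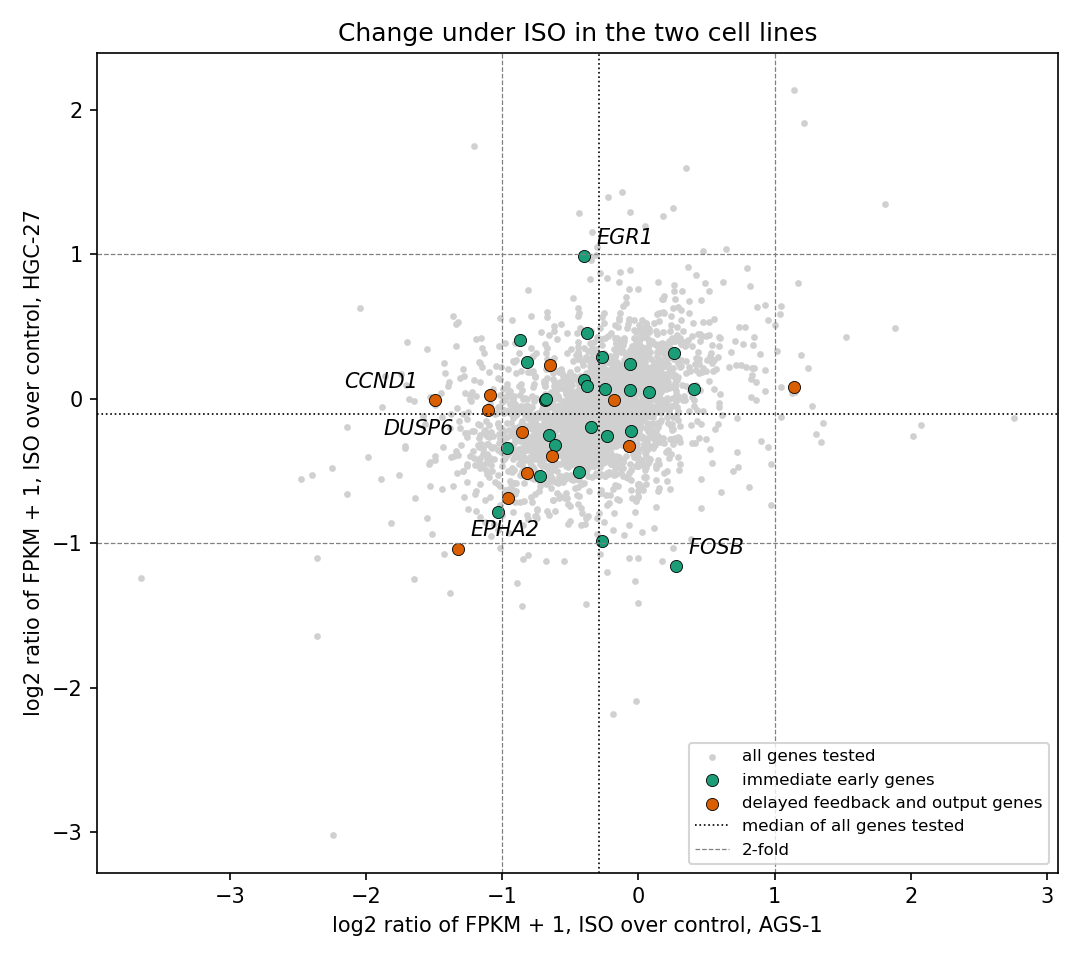
Log2 ratio of FPKM + 1, ISO over control, in AGS-1 (x axis) against HGC-27 (y axis), for all 2883 genes tested (grey), the immediate early list (green) and the delayed list (orange), with dotted lines at the medians of all genes and dashed lines at 2-fold. EPHA2 lies past 2-fold lower on both axes, CCND1 and DUSP6 on the AGS-1 axis, FOSB on the HGC-27 axis, and EGR1 just under 2-fold higher in HGC-27.

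Of 35 immediate early genes listed, 26 were measured. In AGS-1, 22 of the 26 had a ratio below 0, against 78.8% of all genes, and 15 lay below the median of all genes. In that line 1 (FOSL2) was at least 2-fold lower, against 6.66% of all genes. In HGC-27, 13 of the 26 were below 0, against 64.2% of all genes, and 1 (FOSB) was at least 2-fold lower, against 0.937%. With upper-quartile scaling 10 of the 26 were below 0 in AGS-1 and 11 in HGC-27. The median ratio (log2) of the 26 genes was −0.38 for AGS-1, against −0.29 over all genes, and 0.03 for HGC-27, against −0.11. Of the AP-1 subunits, FOSL2 had 73.3 and 35.4 FPKM in AGS-1 and 13.3 and 7.28 FPKM in HGC-27. It was the only immediate early gene called by limma and fell by 0.91 on the log2 scale (standard error 0.188, adjusted p = 0.0410 by limma), lower in 2 of 2 lines, with adjusted p between 0.00771 and 0.999974 over the alternatives.

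The 4 immediate early mRNAs with the highest mean over all libraries were JUND, MCL1, JUN and ZFP36, a ranking that follows AGS-1 more than HGC-27. ZFP36 had 229 FPKM in AGS-1 without ISO and 3.11 FPKM in HGC-27, where JUNB had 70.2 and FOS 39.2 FPKM, both picked with their values in view. JUND had log2 ratios of −0.05 (AGS-1) and −0.22 (HGC-27), JUN of −0.25 and 0.07, and ZFP36, which binds and destabilizes short-lived mRNAs, of −0.06 and 0.24, and the AGS-1 ratios of these 3 genes turned positive with upper-quartile scaling. MCL1, an antiapoptotic protein of short half-life, had 310 and 176 FPKM in AGS-1 and 35.7 and 42.9 FPKM in HGC-27. FOSB took 6.33% of the summed FPKM of the 4 FOS family genes in untreated AGS-1 cells and 11.4% with ISO. In HGC-27 its share was 9.03% in the control and 3.43% with ISO. These shares do not depend on how the libraries are scaled.

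Of 28 delayed feedback and output genes listed, 12 were measured. In AGS-1, 4 of the 12 (the members EPHA2, DUSP6 and CCND1 among them) were at least 2-fold lower and 1 higher, and 9 lay below the median of all genes. Over all genes the shares were 6.66% lower and 0.832% higher. With upper-quartile scaling 1 of the 12 (CCND1) was at least 2-fold lower and 1 (LIF) higher, and the list median was −0.42. The fourth gene lower as deposited was MYEOV (103 and 47.7 FPKM), and the gene higher was LIF, a cytokine of the interleukin-6 family (41.0 and 91.8 FPKM). In HGC-27, EPHA2 alone was at least 2-fold lower. TNFRSF12A, the receptor of the cytokine TWEAK, had 268 and 137 FPKM in AGS-1 and 38.4 and 23.5 FPKM in HGC-27. The median log2 ratio of the list was −0.84 for AGS-1 and −0.15 for HGC-27. Without EPHA2, DUSP6 and CCND1 it was −0.65 and −0.23 over 9 genes, of which 6 lay below the median of all genes in AGS-1 and 5 in HGC-27. The epithelial markers had a median log2 ratio of −0.71 in AGS-1, with 5 of 6 below the median of all genes. KRT7 there was 7.55-fold lower, from 245 to 34 fragments, and in HGC-27 TWIST1 was 2.15-fold lower. Their part in the values of the delayed genes was not tested.

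**Figure D3:**
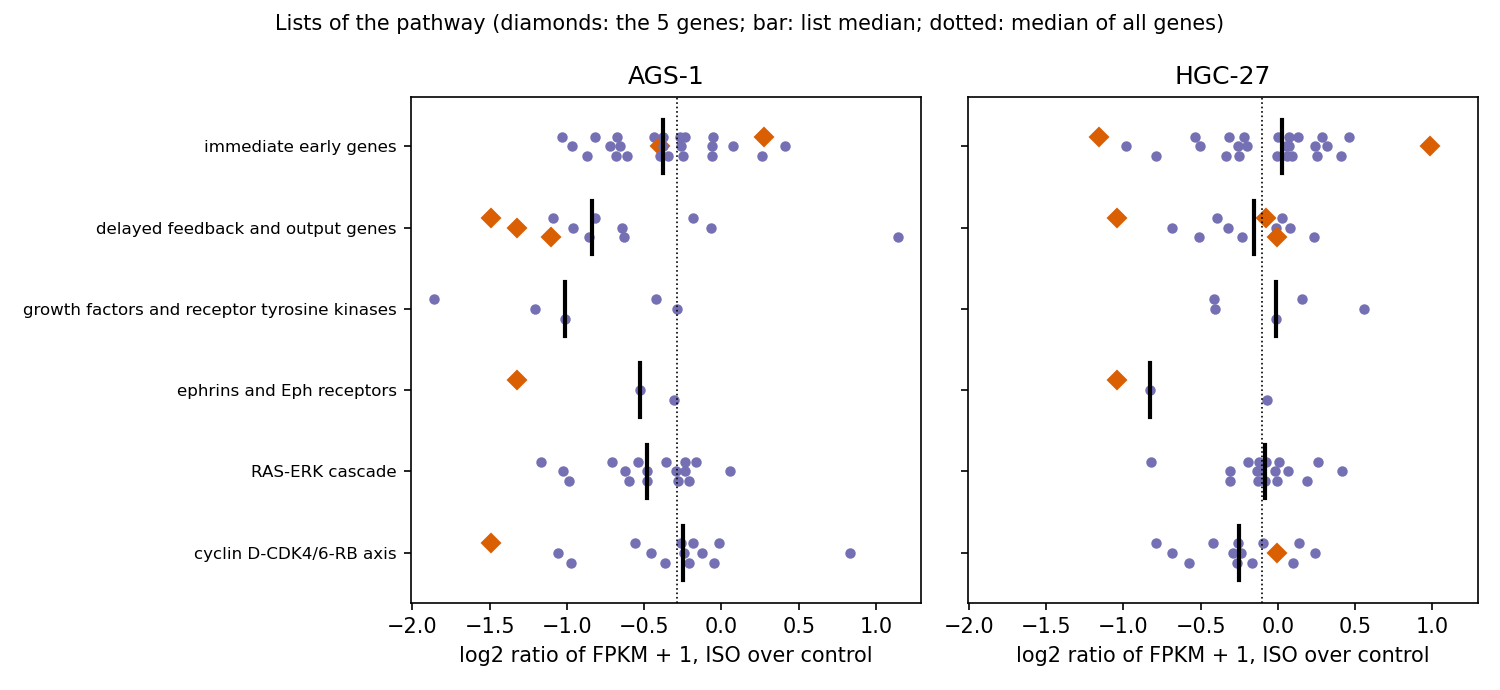
Log2 ratio of FPKM + 1, ISO over control, of each measured gene of 6 lists (rows) in AGS-1 and HGC-27. Diamonds are the 5 genes described, black bars the list medians and dotted lines the medians of all genes. In AGS-1 the delayed list is centred at −0.84 and the immediate early list at −0.38.

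Immediate early and delayed genes were compared within each library, where the scaling cancels. The summed FPKM of the 12 delayed genes was 0.852 of that of the 26 immediate early genes in untreated AGS-1 cells and 0.598 with ISO. In HGC-27 it was 0.239 and 0.189. Without the 5 genes the values were 0.584 and 0.480 in AGS-1 and 0.138 and 0.104 in HGC-27. The ratio of the sums was thus lower with ISO in both lines, by 1.42-fold and 1.26-fold for the whole lists, with no replicate of either. Such sums follow the most abundant genes and do not describe each gene of a list. In AGS-1, 9 of the 12 delayed and 15 of the 26 immediate early genes lay below the median of all genes. In HGC-27 it was 6 of the 12 and 11 of the 26.

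Of the 6 pairs of a delayed with an immediate early member, all 6 had a lower ratio with ISO in AGS-1 and 3 in HGC-27. EPHA2 was 2.25 times EGR1 in the AGS-1 control and 1.18 times with ISO, and 1.75 times and 0.394 times in HGC-27. CCND1 over EGR1 went from 1.22 to 0.570 in AGS-1 and from 4.41 to 2.12 in HGC-27. CCND1 over FOSB went from 15.4 to 4.44 in AGS-1 and from 10.4 to 30.2 in HGC-27. The pairs with EGR1 were therefore lower with ISO in both lines, and those with FOSB were lower in AGS-1 and higher in HGC-27. The pairs share genes and are not independent. The members were chosen with earlier results of these data known, so the counts of pairs are no test. The share of such pairs over all genes was not counted.

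Among growth factors and receptor tyrosine kinases, 5 of 24 listed genes were measured, and 3 of the 5 were at least 2-fold lower in AGS-1, against 6.66% of all genes. With upper-quartile scaling EGFR alone was (−1.45), with −0.80 for MET and −0.60 for HBEGF. EGFR, the EGF receptor, had 43.0 and 11.1 FPKM in AGS-1 and 0.974 and 1.20 FPKM in HGC-27. MET, the receptor of hepatocyte growth factor, had 42.6 and 17.9 FPKM in AGS-1 and 7.09 and 5.10 FPKM in HGC-27. HBEGF, a ligand of the EGF receptor, had 68.8 and 33.5 FPKM in AGS-1 and 2.15 and 3.64 FPKM in HGC-27. FGFR4 and VEGFA had log2 ratios of −0.29 and −0.42 in AGS-1. In HGC-27 no gene of the list reached 2-fold. In the limma test 0 of the 5 passed, with 1 at an unadjusted p under 0.05, against 578 of all 2883 genes.

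In the RAS-ERK cascade itself 17 of 36 genes were measured, and 2 of the 17 were at least 2-fold lower in AGS-1 and none in HGC-27, against 6.66% and 0.937% of all genes. With upper-quartile scaling 0 of the 17 were, and the list median in AGS-1 was −0.07. As deposited they were SHC1, an adaptor between receptors and RAS (140 and 68.3 FPKM in AGS-1, 37.3 and 29.9 FPKM in HGC-27), and RRAS, a RAS-related GTPase (130 and 57.5 FPKM, 23.1 and 12.7 FPKM). RRAS fell by 0.99 on the log2 scale in the limma test (standard error 0.203, adjusted p = 0.0408 by limma), lower in 2 of 2 lines, with adjusted p between 0.00820 and 0.999974 over the alternatives. PEBP1, an inhibitor of RAF, had log2 ratios of −0.23 and −0.31, and YWHAZ, a 14-3-3 protein, of −0.71 and −0.12. The median of the list as deposited was −0.48 for AGS-1 and −0.08 for HGC-27.

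The genes with the pattern most like each member over the 4 libraries were sought among 2792 genes that averaged 10 FPKM or more, by the root mean square distance of the centred log2(FPKM + 1) values. FOXA3 (distance 0.0512), TMC5 (0.0698) and ANXA3 (0.0880) were nearest to DUSP6, and all 3 had under 0.1 FPKM in HGC-27. MIDN (0.130), TSC22D1 (0.156) and ANXA2 (0.160) were nearest to CCND1. ELMO3 was nearest to EGR1 (0.0837), with 44.0 and 37.3 FPKM in AGS-1 and 1.92 and 4.21 FPKM in HGC-27, before NME3 (0.267) and DPP7 (0.270). EPHA2 and FOSB had no gene as near. C4BPB (0.284), LURAP1L (0.304) and TNFAIP2 (0.331) came first for EPHA2, and RPSAP15, a pseudogene (0.310), CDKN2B (0.311) and L1CAM (0.321) for FOSB. With 4 libraries such a likeness rests mostly on the gap between the lines.

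The ratios of the 5 genes were recomputed with other scalings of the libraries. In AGS-1, median-of-ratios scaling gave −1.04 for EPHA2, −0.83 for DUSP6 and −1.21 for CCND1, and upper-quartile scaling −0.90, −0.69 and −1.07. In HGC-27 these scalings gave 1.05 and 1.13 for EGR1, past 2-fold, and −0.98 and −0.90 for EPHA2, short of it. FOSB had −1.12 and −1.07 there. Of the list genes named, the AGS-1 ratios of DUSP1, DUSP4, CDKN1A, PCNA, FGFR4 and PEBP1 turned positive under at least 1 of these scalings, as did the HGC-27 ratios of YWHAZ and VEGFA.

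**Figure D4:**
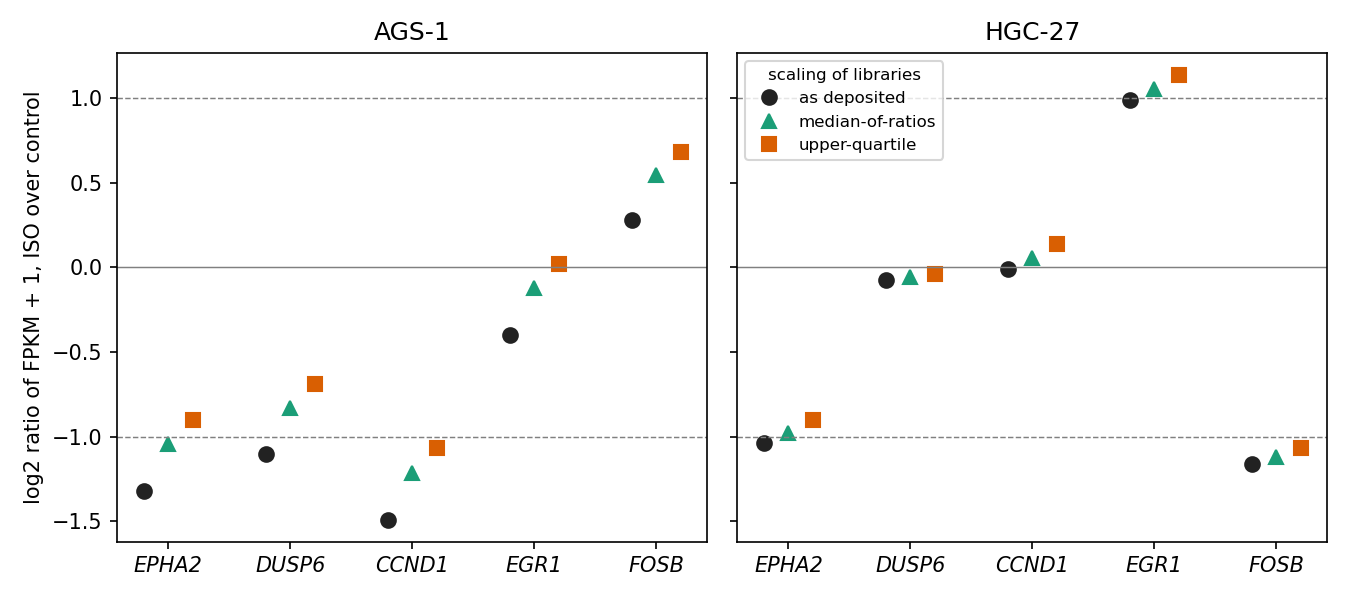
Log2 ratio of FPKM + 1, ISO over control, of the 5 genes in AGS-1 (left) and HGC-27 (right) with the libraries scaled as deposited, by median-of-ratios or by upper quartile, with dashed lines at 2-fold. The order of the 5 genes within each line is the same under the 3 scalings, while EPHA2, DUSP6 and EGR1 cross a dashed line.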

How the data were processed

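RNA of the 4 samples was made into mRNA libraries with a VAHTS kit and read on an Illumina NextSeq instrument. FPKM per gene and library were deposited by the authors, with lengths and coordinates. The submitters' processing notes name CASAVA 1.8, HISAT2 and GRCh38. The counting tool, the annotation and the use of strand are not given in the sources used here. On the opposite strand, GENCODE 29 places 1 gene overlapping each of EPHA2, DUSP6, CCND1 (LTO1) and FOSB (ERCC1), and 0 at EGR1. Multiplying FPKM by length gave whole numbers of fragments for 100% of values, once divided by the smallest step of each library (within 0.01 fragments, or 1e-05 of the value above 1000 fragments), and these served for the counting intervals (Poisson for a level, exact binomial for a fold).

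Ratios were taken on log2(FPKM + 1), a pseudocount of 1 FPKM, with the scaling of the deposited values, and 2-fold means a log2 ratio of 1 or more, up or down. Within a cell line no test was run. The shared change and the cell line difference were tested with limma 3.58.1 in R 4.3.3 (eBayes with a trend, Benjamini-Hochberg over 2883 genes, adjusted p under 0.05). With 4 libraries the 1 residual degree of freedom of a gene is the difference between the lines in its change with ISO. The eBayes step moderates that variance with those of the other genes. The p-values rest on this spread and not on replicate cultures. The limma step was also run on simulated data, in which each changed gene moved alike in both lines. That run does not cover changes that differ between the lines. The alternatives were pseudocounts of 0.1 and 5 FPKM, median-of-ratios and upper-quartile scaling, other filters, a model with only the compared factor and no variance trend. Python 3.11.15 with pandas 2.3.3 and scipy 1.17.1 was used for the rest.

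The members and lists were chosen with earlier results of these data known. Genes named by rule are the 5 members, genes of each list at least 2-fold changed in either line, the 4 of each list with the highest mean, and the 3 genes nearest in pattern to each member. DUSP1, DUSP2, DUSP4, CDKN2C, JUNB and FOS were added with their values in view. Of the lists, mitochondrial mRNAs and markers are given as sums. Promoter sequences are from RefSeq and were matched by symbol for 4 of the 5 members.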

Additional observations from a re-analysis of the deposited data

Results flagged for a closer look

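The log2 ratio, ISO over control, had opposite signs in AGS-1 and HGC-27 for 7 of the genes named by the rule above, each past 2 counting standard errors. With 1 library per condition the difference was not tested. AGS-1 minus HGC-27, it was −1.39 for EGR1 and 1.44 for FOSB. For the genes of the lists it was −2.02 for EGFR, −1.57 for HBEGF, −1.07 for MCL1, −0.50 for PCNA and −0.32 for JUN. JUNB (−1.28) and FOS (−0.52), picked with their values in view, met the same condition. Median-of-ratios scaling turned the AGS-1 ratio positive for PCNA (0.02) and JUN (0.03). Upper-quartile scaling turned the AGS-1 ratio positive, as it was in HGC-27, for EGR1 (0.02), FOS (0.02), PCNA (0.16) and JUN (0.17). FOSB, EGFR, HBEGF, MCL1 and JUNB kept opposite signs as deposited and under both other scalings.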

How the results depend on the processing

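The 5 members kept the direction of every 2-fold ratio under all alternatives tried, but not always its size. In AGS-1, 3 members were past 2-fold as deposited and 1 with upper-quartile scaling, and in HGC-27 2 members as deposited and 0 with a pseudocount of 5 FPKM. Over all genes in AGS-1, 216 changed 2-fold, 192 lower and 24 higher. Median-of-ratios scaling gave 122 (72 lower, 50 higher) and upper-quartile scaling 105 (45 lower, 60 higher). In HGC-27, 43 changed, 27 lower and 16 higher. A pseudocount of 0.1 FPKM gave 72 (45 lower, 27 higher) and one of 5 FPKM 27 (16 lower), and upper-quartile scaling gave 15 lower and 26 higher.

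The limma test of the shared change called 27 genes. It called 107 with a pseudocount of 0.1 FPKM, 104 with a filter at a mean of 10 FPKM, 12 with a pseudocount of 5 FPKM, 6 without a filter and 6 without a variance trend. It called 0 with median-of-ratios scaling, 0 with upper-quartile scaling and 0 without the cell line in the model, where 511, 502 and 15 genes had an unadjusted p under 0.05. The change of EPHA2 missed the threshold with a pseudocount of 5 FPKM (−1.07, adjusted p = 0.0909 by limma), median-of-ratios scaling (−1.01, 0.0670), upper-quartile scaling (−0.90, 0.133), no filter (−1.18, 0.0876), no variance trend (−1.18, 0.0845) and without the cell line in the model (−1.18, 0.999974). The cause was not tested. The count of genes called for the cell line stayed within 1.5 times of 1639. Depth limits DUSP6 in HGC-27, with 29 and 20 fragments. Leaving out a cell line leaves single libraries, whose ratios are those given for each line.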
